A study of Arabidopsis thaliana with 18 samples.

Results

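The response of rao1-1 seedlings to antimycin A was read from 6 of the 18 microarrays of the study, 3 from rao1-1 seedlings sprayed with antimycin A and 3 from rao1-1 seedlings sprayed with water. These 6 arrays were chosen by the genotype and treatment in their labels, and all 22746 probe sets for plant transcripts were tested. The study used Arabidopsis thaliana, and its other 12 arrays held rao1-2 and wild-type seedlings, with antimycin A and with water, in 4 groups of 3. rao1 stands for regulators of alternative oxidase 1a, a class of mutants found in a forward genetic screen, and the wild type is labelled Col-Luc. The series title names the kinase CDKE1, which was not analysed here.

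All seedlings were 14 days old and had grown on Gamborg B5 medium with 3% sucrose, in 16 h light and 8 h dark at 22 °C. The treated groups (rao1-1 antimycin A, rao1-2 antimycin A and wild-type antimycin A) were sprayed with 50 µM antimycin A and collected after 3 h. The mock groups (rao1-1 mock, rao1-2 mock and wild-type mock) were sprayed with deionised water. RNA came from whole green tissue, so each array averages over all cell types of the shoot, and fewer cells of a type cannot be told apart from less RNA per cell. The labels do not say whether the 3 arrays of a group came from separately grown plants, so the p-values rest on the spread between these arrays, which may be technical.

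Antimycin A binds respiratory complex III in the inner mitochondrial membrane and blocks the passage of electrons from ubiquinol to cytochrome c. Upstream carriers become over-reduced and release reactive oxygen species, and the nucleus answers with altered transcription, a route called mitochondrial retrograde signalling. In Arabidopsis the genes known for this answer encode alternative respiratory enzymes, detoxifying transferases, efflux carriers and mitochondrial stress proteins.

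Levels are the deposited intensities on a linear scale, and a change is the difference in mean log2 intensity, antimycin A minus mock, with its standard error. A background limit was placed at an intensity of 19.1, where the values of all arrays are sparsest between background and signal, once they had been seen. Across all 18 arrays 61.9% of values lay above the limit. A group with all arrays under it has only a bound, so a fold against it is given as "at least". Probe sets were called at an adjusted p under 0.05 in limma, and all adjusted p-values below are limma's.

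The 6 arrays were alike within groups. The mean correlation of an array with the others of its group, across probe sets, was 0.989 to 0.991 for rao1-1 antimycin A. For rao1-1 mock it was 0.994 to 0.995. The 25S ribosomal RNA probe set differed between treatments, at a mean log2 of 14.20 ± 0.06 with antimycin A and 12.96 ± 0.07 under mock (SD, n = 3 each). Spike-in controls were also higher with antimycin A, the 22 poly(A) controls at 7.38 ± 0.11 against 7.16 ± 0.03 under mock and the 12 hybridisation controls at 11.88 ± 0.06 against 11.62 ± 0.08 under mock. The 3′ to 5′ signal ratio of ubiquitin lay between 0.414 and 0.538 on the antimycin A arrays and between 0.178 and 0.355 on the mock arrays, while the ranges for GAPDH and actin overlapped. The part of these shifts in the results that follow was tested only by centring the arrays on either set of controls. Green-tissue markers were present and alike, with a summed intensity for RCA, LHCB4.1 and LHCB4.2 of 52857 to 60145 with antimycin A and 55877 to 60586 under mock, these being 3 of 16 such markers with a named probe set. Of 9 root markers 2 were named, PYK10 at a mean of 946 with antimycin A and 1118 under mock and EXPA7 under the limit in both groups. No mature-seed or flower marker on the lists was named.

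Antimycin A changed 9225 probe sets in rao1-1, 40.6% of those tested. Of these 3590 were higher with antimycin A, 15.8% of those tested, and 5635 were lower, 24.8%. In wild type 43.2% were called. The replicates of the 2 rao1-1 groups did not overlap for 62.2% of probe sets, 31.7% with the antimycin A arrays higher and 30.4% with them lower. The higher calls reached further. Changes of at least 2-fold were shared about evenly, 1985 higher (8.73%) and 2073 lower (9.11%), whereas changes of 3 or more on the log2 scale numbered 472 higher and 73 lower, and of 5 or more 122 higher and 1 lower. Centring on the poly(A) controls gave 2424 higher and 7498 lower, and centring on the hybridisation controls gave 2517 higher and 11130 lower. These centrings shifted the median over all probe sets by -0.22 and -0.26 on the log2 scale.

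**Figure D1:**
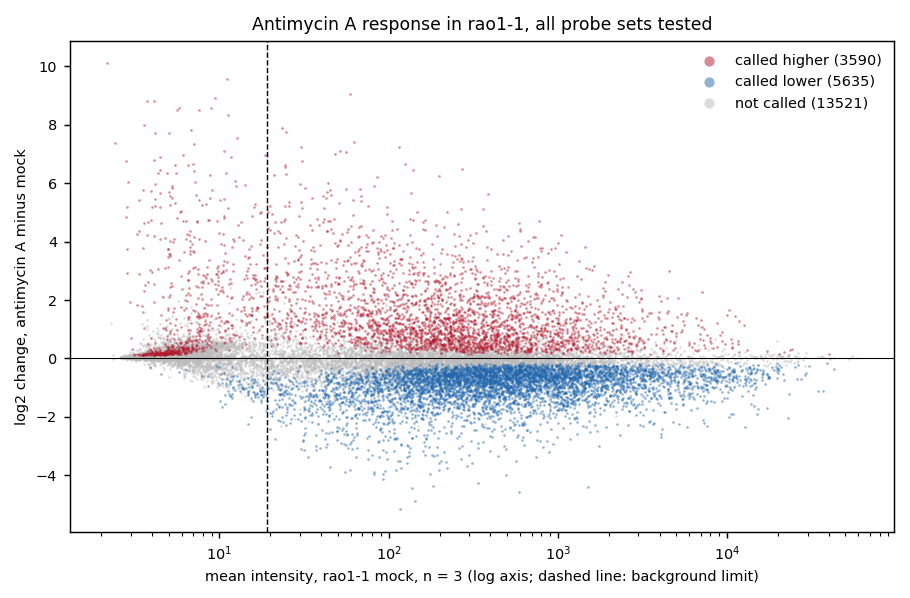
Each point is 1 probe set, placed by its mean intensity over the 3 rao1-1 mock arrays (log axis) and by its log2 change, antimycin A minus mock. The 3590 higher calls in red include 122 at a log2 change of 5 or more, while the 5635 lower calls in blue lie mainly right of the dashed background limit of 19.1 and hold 1 as large.

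The balance of calls differed with how bright a probe set was under mock. Among the 13135 probe sets above the limit on all 6 arrays, 2778 (21.1%) were higher with antimycin A and 5053 (38.5%) lower, with a median change of -0.20. Split evenly into 4 classes by mock intensity, the dimmest (19.6 to 140.2) had 26.1% higher and 18.3% lower. The brightest (865 to 58766) had 15.3% higher and 52.7% lower. In the classes between, 23.9% and 19.3% were higher and 37.7% and 45.1% lower, so that the share lowered by antimycin A grew with each class of mock intensity. The classes use the same mock arrays as the change, so this is a description. A further 7701 probe sets were under the limit on all 6 arrays, and 358 of those were called, all without a level that can be interpreted.

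Antimycin A switched on 216 probe sets in rao1-1, that is, all 3 mock arrays were at or under the limit and all 3 treated arrays above it. Of these 129 name 1 gene. Over all 216 the median treated intensity was 89.0, and 99 of the 216 exceeded 100 and 14 exceeded 1000. The 12 brightest named genes included precursors of secreted stress peptides, an efflux carrier, a receptor kinase and a glucosyltransferase.

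AT4G28460, which encodes a small secreted peptide precursor of the stress-induced PIP family, had intensities of 2594, 3742 and 3366 with antimycin A and 16.1, 13.0 and 4.75 under mock. The rise was at least 167-fold (log2 change 8.32 ± 0.47, adjusted p = 1.98e-08). AT4G37290, a second peptide precursor of that family, read 765, 1050.4 and 813 with antimycin A against 3.57, 4.99 and 3.92 under mock, a rise of at least 45.4-fold. Both peptide genes were thus under the limit in every mock sample and far above it in every treated one.

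AT2G04050, a MATE efflux carrier that exports organic compounds, reached 1705, 3726 and 1664 with antimycin A and stayed at 5.96, 5.19 and 6.04 under mock (at least 115-fold, adjusted p = 2.80e-09). The second treated array was the highest of its group by a wide margin, and the groups did not overlap. AT2G32020, which encodes an acetyltransferase of the GNAT family and is a standard mitochondrial stress marker, had 1772, 2070.4 and 1694 with antimycin A and 3.95, 4.06 and 4.33 under mock. The rise was at least 96.1-fold (adjusted p = 1.16e-13), and its 3 treated arrays lay close together.

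The other switched-on genes lay between 443.6 and 1327 on every treated array. AT5G59680, a leucine-rich repeat receptor kinase, read 1007, 1299 and 1105 with antimycin A and 7.01, 7.48 and 6.57 under mock (at least 59.1-fold). UGT73B4, a glucosyltransferase that conjugates small phenolic molecules, read 678, 1327 and 689 with antimycin A and 12.3, 11.8 and 18.6 under mock (at least 44.6-fold), with mock replicate 3 close to the limit. CML37, a calmodulin-like calcium sensor, read 554, 634 and 668 with antimycin A and 5.32, 5.40 and 8.73 under mock (at least 32.2-fold). AT1G22810, an ERF-family transcription factor, averaged 839 ± 104 with antimycin A and 10.98 ± 4.26 under mock (SD, n = 3 each). AT1G74870, a RING and U-box domain protein, averaged 737 ± 266 with antimycin A and 6.94 ± 0.63 under mock, and AT2G31945, AT1G63530 and AT5G12340, which have no role given here, rose at least 43.0-, 40.2- and 36.9-fold. In each of these 12 genes the treated arrays lay entirely above the mock arrays, as they had to under the rule that named them.

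**Figure D2:**
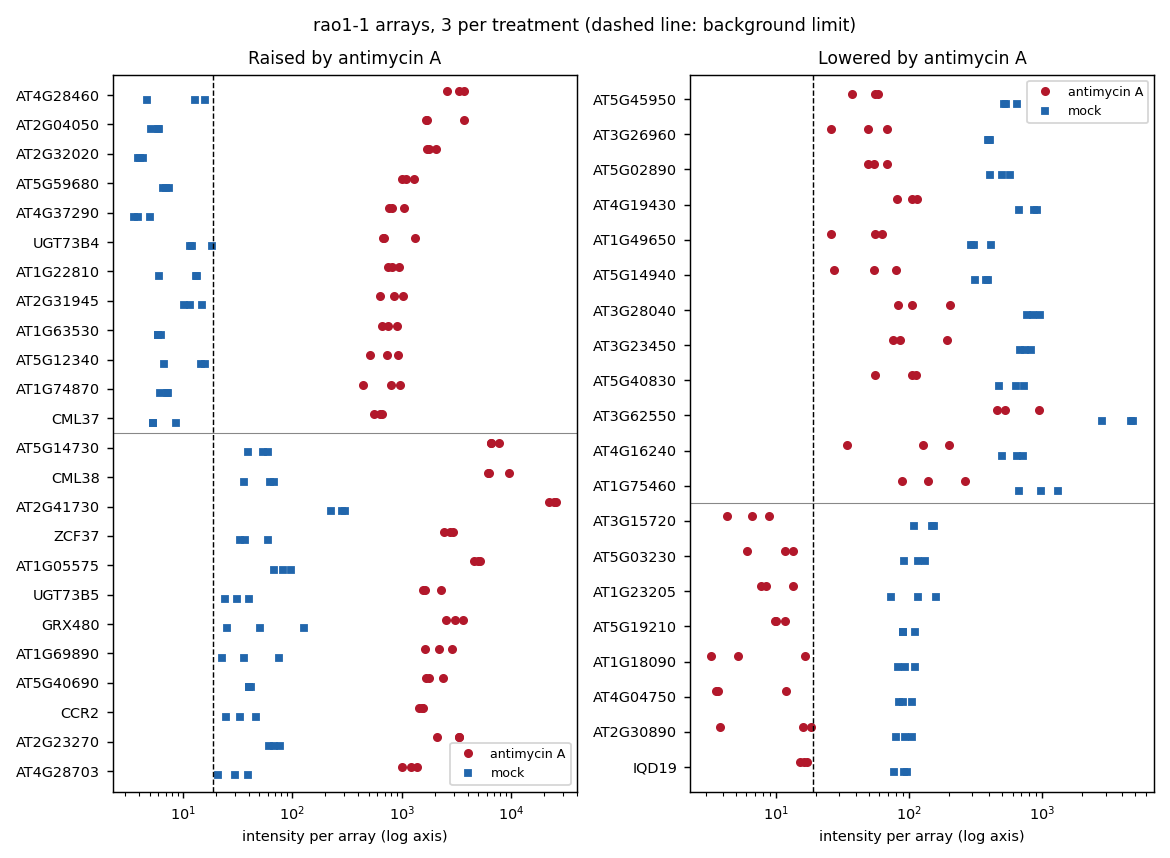
Intensity on each of the 3 rao1-1 antimycin A arrays (red circles) and 3 rao1-1 mock arrays (blue squares), on a log axis, for the named genes raised (left) and lowered (right). Above the grey line on the left are the 12 switched-on genes and below it the 12 raised from a measured level, and on the right the genes lowered at a measured level stand above those lowered to the background limit of 19.1 (dashed).

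A second set of transcripts was already measurable under mock and rose far. AT5G14730, with no role given here, had 6608, 7815 and 6572 with antimycin A and 39.6, 54.1 and 60.4 under mock, a 138-fold rise (log2 change 7.11 ± 0.32, adjusted p = 2.72e-09). CML38, a calmodulin-like protein close to CML37, read 9519, 6321 and 6099 with antimycin A against 68.8, 36.6 and 62.2 under mock, a 133-fold rise. The lowest treated array of each stood far above its highest mock array. Genes of this set were named only where the groups did not overlap and for their large rises, so this separation is no further support.

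GRX480, a glutaredoxin that links redox state to defence transcription, had 3646, 3068 and 2537 with antimycin A and 51.2, 25.5 and 127 under mock (55.5-fold, adjusted p = 4.40e-06). Its mock arrays were widely spread, yet the highest of them was well under the lowest treated array, and without mock replicate 3 the rise was 84.5-fold. CCR2, a cinnamoyl-CoA reductase of monolignol synthesis, had 1444, 1539 and 1583 with antimycin A and 46.9, 33.2 and 25.1 under mock, 44.8-fold. UGT73B5, the neighbour in family of UGT73B4, had 1623, 2289.8 and 1570.0 with antimycin A and 31.2, 24.4 and 40.7 under mock, 57.3-fold with a large error (log2 change 5.84 ± 0.94, adjusted p = 2.03e-04). The error draws on all groups, and the gene was widely spread in wild-type mock (13.9, 46.5 and 158) and rao1-2 mock (20.5, 199 and 466). ZCF37, AT1G05575, AT1G69890, AT5G40690, AT2G23270 and AT4G28703 rose 63.9-, 60.3-, 54.6-, 47.0-, 41.9- and 40.9-fold.

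Some of the brightest probe sets on the treated arrays were themselves raised. AT5G54940, a translation initiation factor of the SUI1 family, had 33021, 28771 and 29483 with antimycin A and 9588, 11988 and 11843 under mock (2.74-fold, adjusted p = 9.83e-08). AT2G41730, a standard mitochondrial stress marker read by a probe set that can also bind related transcripts, had 22191, 24620.3 and 25761 with antimycin A and 227, 303 and 288 under mock (89.3-fold, adjusted p = 1.07e-05). XTH18, a wall enzyme that cuts and rejoins xyloglucan, had 22518, 17224 and 16172 with antimycin A and 585, 459.8 and 1284 under mock (26.3-fold). The treated arrays of all 3 lay above their mock arrays, which the naming rule required, by a narrower gap in AT5G54940 than in the others. AT1G19020 rose 18.9-fold, AT1G32920 7.82-fold, and AT5G35735, an auxin-responsive protein with a cytochrome b561 domain, 4.25-fold.

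Transcripts lowered by antimycin A changed by smaller factors than those raised. AT5G45950, a GDSL-type lipase, had 58.4, 37.2 and 55.2 with antimycin A and 643, 537 and 521 under mock, a fold of 11.5 (log2 change -3.52 ± 0.36, adjusted p = 4.85e-06). AT5G02890, an acyltransferase of the HXXXD family, had 49.0, 68.3 and 54.5 with antimycin A and 573, 500.1 and 406 under mock (log2 change -3.11 ± 0.23, adjusted p = 2.04e-07). AT3G28040, a leucine-rich repeat receptor kinase, had 83.2, 106 and 203 with antimycin A and 851, 768 and 964 under mock (log2 change -2.82 ± 0.34). In all 3 the highest treated array was well under the lowest mock array, and the naming rule required that the groups not overlap.

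Further lowered genes were AT3G26960, a pollen Ole e 1 domain protein, at a log2 change of -3.17, AT5G14940, of the peptide and nitrate transporter family, at -2.87, and AT3G62550, a universal stress protein, at -2.70. AT3G62550 had 528, 459 and 946 with antimycin A and 4848, 2811 and 4640.0 under mock. AT4G19430, AT1G49650, AT3G23450, AT5G40830, AT4G16240 and AT1G75460, with no role given here, changed by -3.03, -2.88, -2.81, -2.80, -2.69 and -2.69. AT4G16240 was read by a probe set that can bind related transcripts, and its treated arrays were spread, at 34.1, 128 and 199.6, so that the change was -1.95 without treated replicate 1.

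Antimycin A brought 141 probe sets down to or under the limit on all 3 treated arrays from above it on all 3 mock arrays, and 87 of them name 1 gene. AT3G15720, a pectin lyase-like protein, had 6.63, 4.26 and 8.90 with antimycin A and 149.5, 110.0 and 155 under mock, a fall of at least 7.14-fold (adjusted p = 1.54e-05). AT1G23205, an inhibitor of pectin methylesterase, had 8.48, 13.5 and 7.74 with antimycin A and 72.6, 117 and 159.9 under mock, at least 5.78-fold lower. AT4G04750, a sugar carrier of the major facilitator family, had 3.56, 3.64 and 11.9 with antimycin A and 105, 89.8 and 84.5 under mock, at least 4.85-fold lower. These low mock levels leave little room above the limit, so the bounds are small. AT5G03230, AT5G19210, AT1G18090, AT2G30890 (a cytochrome b561 protein) and IQD19 (a calmodulin-binding scaffold) had bounds of 5.88-, 5.05-, 4.97-, 4.83- and 4.62-fold.

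Of the probe sets lowered at least 2-fold, the 6 brightest under mock that name 1 gene included ATPC1, AT3G04840 and a dehydrin. ATPC1, the gamma subunit of the chloroplast ATP synthase, had 5817, 6297 and 9871 with antimycin A and 16736, 12642 and 14557 under mock (log2 change -1.03 ± 0.26, adjusted p = 0.00532). AT3G04840, a cytosolic ribosomal protein of the small subunit, had 4373, 5071 and 6050.4 with antimycin A and 10207, 10965 and 10225 under mock (log2 change -1.03 ± 0.12, adjusted p = 1.83e-05). AT1G54410, a dehydrin, had 14659, 16967 and 16304 with antimycin A and 35659, 38019 and 30573 under mock. All 3 were between 2.04- and 2.17-fold lower with antimycin A, and the naming rule required that the arrays not overlap. AT1G09310, AT1G13930 and CCL changed by -1.12, -1.55 and -1.09.

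Gene lists by pathway and family placed these genes among their relatives. The 31 lists with at least 3 named genes held 400 genes, of which 106 (26.5%) were higher with antimycin A and 59 (14.8%) lower, with a median change of 0.10 against 0.04 over all probe sets tested. The lists were chosen with results of these data known, so these shares carry no weight of their own. Over all probe sets 15.8% were higher and 24.8% lower, which is the background for each count below. Lower calls were more frequent in 13 of the 31 lists after centring on the poly(A) controls and in 20 after centring on the hybridisation controls. For 18 lists the median lay between 0.00 and 0.17 and turned negative under both control centrings. For those lists only members and counts are described, except that the plastid-encoded list is given with its median with and without the control centrings.

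**Figure D3:**
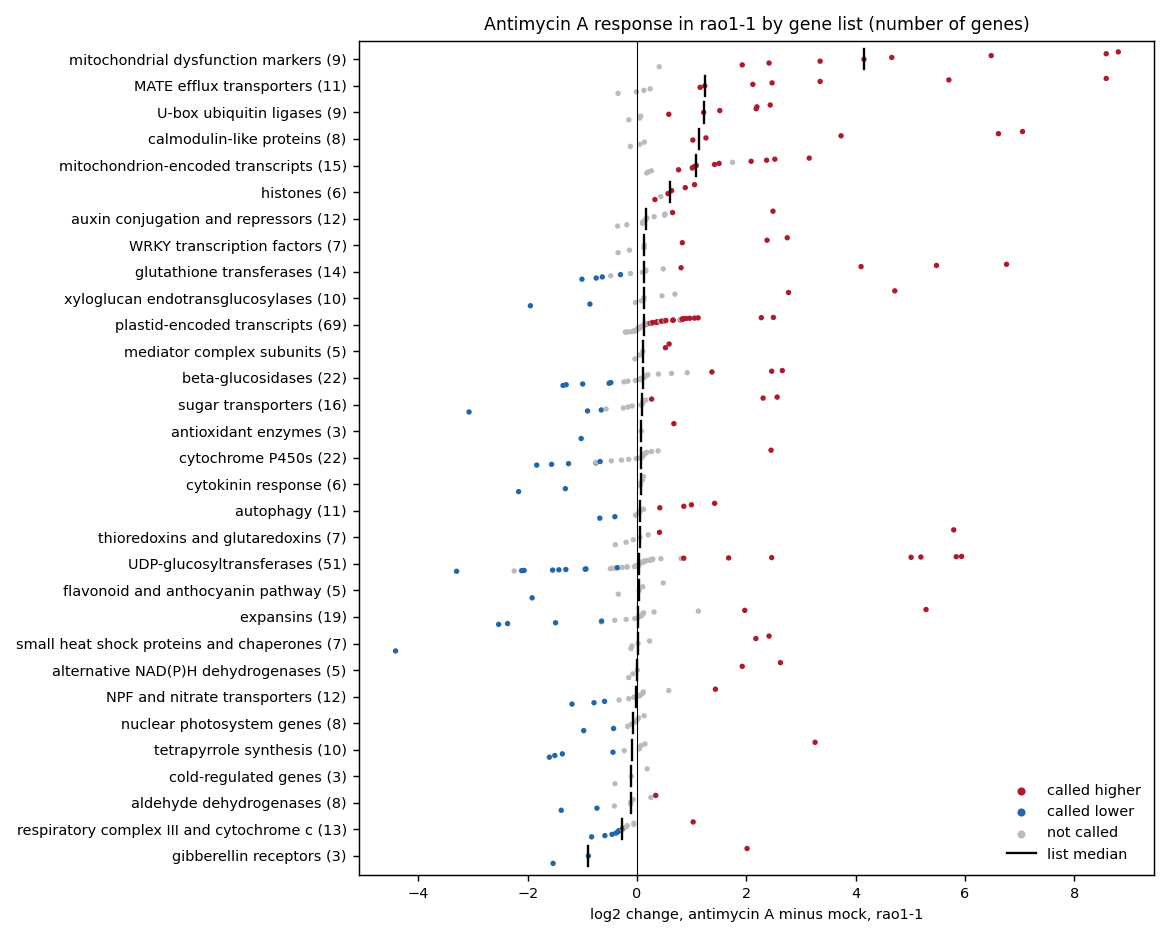
Each point is 1 gene of a list, placed by its log2 change in rao1-1, antimycin A minus mock, in red where called higher, blue where called lower and grey where not called, with the list median as a black bar. The medians of 9 mitochondrial dysfunction markers (4.15), 11 MATE carriers (1.24), 9 U-box ligases (1.22), 8 calmodulin-like proteins (1.14) and 15 mitochondrion-encoded transcripts (1.08) stand furthest to the right.

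Of the 9 mitochondrial dysfunction markers, nuclear genes raised by many mitochondrial defects, 8 were called higher and none lower, with a median log2 change of 4.15. AT2G21640, whose product UPOX is a mitochondrial protein raised by oxidative stress, had 3288, 5836 and 3085 with antimycin A and 102, 187 and 192 under mock (25.3-fold, adjusted p = 3.19e-05). AT5G51440, a mitochondrial small heat shock protein, had 563, 1399.6 and 902 with antimycin A and 133, 198 and 178 under mock, and its adjusted p of 0.0288 exceeded 0.05 when any of 5 of the 6 arrays was left out, reaching 0.0894. The marker that was not called, AT5G09570, encodes the small mitochondrial protein AT12CYS-2, and it stayed under the limit on all 6 arrays, at 8.10, 7.67 and 5.36 with antimycin A and 5.25, 5.31 and 5.12 under mock.

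The alternative NAD(P)H dehydrogenases feed electrons into the respiratory chain without pumping protons. Of 5 listed, 2 were called higher and none lower. NDB2, which oxidises NADH on the outer face of the inner membrane, had 874, 1784 and 1177 with antimycin A and 157, 198 and 252 under mock (6.16-fold, adjusted p = 0.00251). NDB4 had 3.30, 26.6 and 16.3 with antimycin A and 3.10, 2.90 and 2.92 under mock, so that 1 of 3 treated arrays exceeded the limit, and its adjusted p of 0.0180 reached 0.108 under an alternative setting. Its log2 change of 1.92 was 2.81 without treated replicate 1 and 1.31 without treated replicate 2. The control centrings gave 1 and 2 lower calls on this list. NDB4 is also on the marker list above.

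Complex III, the target of the drug, and cytochrome c showed small changes in the opposite direction. Of 13 genes, 1 was higher and 7 lower, with a median of -0.27 that was -0.49 and -0.53 under the control centrings. All 13 were above the limit on all 6 arrays, where 38.5% of probe sets were lower, with a median of -0.20. In the brightest class of mock intensity 52.7% were lower, with a median of -0.36. The list thus lay near bright probe sets in general, and its lower calls are not particular to complex III. MPPBETA, the processing peptidase subunit that forms a core part of plant complex III, had 2959.6, 3404 and 3421 with antimycin A and 4451, 4649 and 4314 under mock (log2 change -0.46 ± 0.09, adjusted p = 0.00123). AT1G51980, the alpha partner of that peptidase, changed by -0.59 ± 0.13, and AT5G25450, a small subunit of the complex, by -0.83 ± 0.19. The higher gene was CYTC-2, 1 of 2 cytochrome c genes, with 2489.8, 2833 and 2411 with antimycin A and 1226, 1576 and 1041 under mock (adjusted p = 0.0219, up to 0.0899 under the alternatives), while CYTC-1 changed by -0.18 and was not called.

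Efflux carriers and conjugating enzymes differed from family to family. Among 11 MATE carriers 7 were higher and none lower, with a median of 1.24. AT5G52050 had 298, 170.5 and 359.6 with antimycin A and 4.58, 5.32 and 5.27 under mock (at least 13.8-fold, adjusted p = 1.63e-08). AT2G04070, a close relative of AT2G04050, had 371, 898 and 456 with antimycin A and 68.8, 57.6 and 36.1 under mock (10.2-fold, adjusted p = 0.00781). AT1G66760 rose 5.55-fold, and the carriers AT1G71140, AT1G15180, AT1G66780 and AT1G64820 were not called.

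Of 14 glutathione transferases, enzymes that attach glutathione to reactive compounds, 4 were higher and 4 lower. GSTU25 had 1534, 3854 and 2084 with antimycin A and 5.88, 28.2 and 58.4 under mock (108-fold, adjusted p = 5.27e-05), with 1 mock array under the limit and the others above it. The fold was 56.98 without that array, mock replicate 1, and 179 without mock replicate 3. GSTU22 had 132, 372 and 239.9 with antimycin A and 6.80, 4.46 and 4.38 under mock, at least 11.9-fold, and ATGSTF13 rose at least 5.67-fold. GSTU26 was dim in both groups and changed by -1.01. Of 51 glucosyltransferases 7 were higher and 9 lower, shares under those over all probe sets (15.8% higher and 24.8% lower), and 22 lay under the limit on all 6 arrays. Centring on the hybridisation controls gave 7 higher and 21 lower. UGT71B6, which glucosylates abscisic acid, had 59.3, 144 and 126 with antimycin A and 2.56, 3.33 and 2.57 under mock (at least 5.36-fold), and UGT73C1 rose at least 9.81-fold. Of 22 cytochrome P450 genes 1 was higher, CYP84A4 at 5.47-fold, and 5 lower, among them CYP71B24 at -1.84 ± 0.37 and CYP71B26 at -1.56 ± 0.19.

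Calcium sensors and ubiquitin ligases of rapid stress signalling had more members raised than lowered. Of 8 calmodulin-like genes 5 were higher and none lower, with a median of 1.14. Beside CML37 and CML38, AT1G76640 had 60.8, 69.6 and 67.8 with antimycin A and 4.82, 4.88 and 5.19 under mock (at least 3.45-fold), and CML42, a regulator of trichome branching and herbivory defence, had 981, 1177 and 1004 with antimycin A and 711, 378 and 313 under mock. The groups of CML42 did not overlap, but its 2.40-fold rise was small beside those of its relatives. Of 9 U-box ligases 6 were higher and none lower, with a median of 1.22. PUB23, a negative regulator of immune responses, had 1522, 1151 and 1020.5 with antimycin A and 272, 244 and 282 under mock (4.58-fold, adjusted p = 8.34e-07), and PUB24, its partner in that role, rose 5.42-fold. Under the control centrings 5 ligases were higher, and 1 or 3 lower.

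Of 7 WRKY transcription factors, regulators of defence and senescence, 3 were higher. WRKY6 had 1247, 2019 and 1079.7 with antimycin A and 199, 258 and 175 under mock (6.72-fold, adjusted p = 1.78e-04), and WRKY22 rose 5.20-fold. WRKY53, a senescence regulator, had 1757, 2401 and 2577 with antimycin A and 1210.3, 1382 and 1159 under mock, and its adjusted p of 0.0244 reached 0.131 under the alternatives. Under both control centrings 2 WRKY genes were higher and 2 lower. Among 7 thioredoxins and glutaredoxins 2 were called higher, GRX480 as above and ROXY1, which was under the limit on all 6 arrays and was not called under either control centring.

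Of 7 small heat shock proteins and chaperones 2 were higher and 1 lower, where 40.6% of all probe sets were called in either direction. The higher ones were AT5G51440 as above and AT1G54050, another small heat shock protein, with 854, 1208 and 647 with antimycin A and 222, 178 and 184 under mock (4.51-fold, adjusted p = 1.49e-05). Hsp70-2 was called lower, but its treated arrays read 2.00, 389 and 447 against 1323, 1560.4 and 1646 under mock. The first treated array lay near the lowest intensity in the data, 1.61, and without it the log2 change was -1.85 against -4.42 ± 1.43 with it. Without treated replicate 2 or 3 the change was -5.65 or -5.75. The adjusted p of 0.0233 was 0.0507, 0.0559 and 0.0586 without mock replicates 1, 2 and 3, and 0.176 with the 6 arrays fitted alone. Without treated replicate 1 the smaller fall was still called (adjusted p = 0.00140).

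Among hormone genes, GH3.3, which conjugates auxin to amino acids, had 3837, 2486 and 3239 with antimycin A and 558, 445 and 706 under mock (5.61-fold, adjusted p = 4.08e-06). It and IAA18, an auxin repressor changed by 0.65 ± 0.13, were the 2 called higher of 12 auxin genes, 8 of which were under the limit. The 3 gibberellin receptors were all called and did not move together. GID1B had 362, 362 and 338 with antimycin A and 80.7, 123 and 67.8 under mock, GID1C had 29.9, 29.7 and 20.1 with antimycin A and 72.8, 79.8 and 74.8 under mock, and GID1A had 191, 178 and 178 with antimycin A and 319.7, 308 and 392 under mock. GID1B was thus raised 4.04-fold (adjusted p = 9.77e-04) while GID1C and GID1A changed by -1.54 ± 0.19 and -0.89 ± 0.16. Of 6 type-A cytokinin response regulators 2 were lower, RR16 with 21.1, 44.0 and 62.3 with antimycin A and 187, 155 and 181 under mock, and ARR15, whose adjusted p of 0.0433 reached 0.162 under the alternatives. None of 3 cold-regulated genes was called, and COR47, a dehydrin, had overlapping groups, at 2474, 1386 and 1721 with antimycin A and 2254, 1905 and 3183 under mock.

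Cell wall families split. Of 10 xyloglucan endotransglucosylases 2 were lower and 2 higher, XTH18 and XTH19, the second with 3093, 2128 and 2093 with antimycin A and 318, 286 and 474 under mock (6.83-fold, adjusted p = 1.47e-04). XTH32 of the same family had 777, 738 and 736 with antimycin A and 2828, 2977 and 2902 under mock (log2 change -1.95 ± 0.23, adjusted p = 1.85e-05). Of 19 expansins, proteins that loosen walls, 2 were higher and 4 lower, and 10 were lower after centring on the hybridisation controls. EXLA3 had 357, 206 and 277 with antimycin A and 6.94, 3.39 and 14.5 under mock, at least 14.3-fold higher. EXPA9 had 14.4, 13.7 and 19.2 with antimycin A and 76.8, 114 and 83.8 under mock, with 1 treated array just above the limit, and EXLB1 changed by -2.37 ± 0.47. Of 22 beta-glucosidases 3 were higher and 5 lower, led by BGLU31 at 6.31-fold higher and, among the lowered, BGLU40 at -1.35 ± 0.13.

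Sugar transporters were also divided. SWEET1, a glucose uniporter, had 17.3, 31.5 and 52.2 with antimycin A and 255, 306 and 218 under mock (log2 change -3.07 ± 0.44, adjusted p = 7.20e-05), and SWEET16, a sugar carrier of the vacuole, had 191, 72.4 and 56.7 with antimycin A and 19.9, 10.3 and 18.6 under mock (5.91-fold, adjusted p = 0.00281). In total 3 of 16 were higher and 3 lower, against 2 higher and 7 lower after centring on the hybridisation controls. SAG29 was among the higher calls through a single treated array, 92.6, 3.80 and 15.9 against 3.62, 3.62 and 3.53 under mock, and without that array its log2 change of 2.31 became 1.12 and was not called, while it was 3.42 without treated replicate 2. Its adjusted p of 0.0439 reached 0.225 under the alternatives. Of 12 NPF and nitrate transporters 1 was higher, GTR1, a glucosinolate carrier, at 2.70-fold, and 3 were lower, led by AT1G68570 at -1.19 ± 0.14.

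Of 8 nuclear genes for light-harvesting proteins and photosystem subunits none was higher and 2 were lower, LHCB4.3 at -0.98 ± 0.28 and PSBY at -0.43 ± 0.12, with adjusted p-values of up to 0.0547 and 0.0502 under the alternatives. That is near the 24.8% lower over all probe sets. Centring on the poly(A) and on the hybridisation controls gave 4 and 6 lower, with list medians of -0.29 and -0.33 against -0.07 without centring. Of 10 genes of tetrapyrrole synthesis, the pathway to chlorophyll and haem, 1 was higher and 4 lower. HEMA2, a glutamyl-tRNA reductase at the start of the pathway, had 712, 718 and 559 with antimycin A and 58.6, 68.7 and 81.1 under mock (9.56-fold, adjusted p = 1.03e-08). PORB, which makes chlorophyllide, had 2212, 2053 and 2692 with antimycin A and 6170.2, 5397 and 6289 under mock (log2 change -1.37 ± 0.22), HEME2 changed by -1.60 ± 0.17 and CHLI2, a subunit of magnesium chelatase, by -1.504 ± 0.30.

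CHIL, a chalcone isomerase-like protein of flavonoid synthesis, fell to 13.4, 9.40 and 9.40 with antimycin A against 42.4, 49.9 and 30.2 under mock, and no other of 5 flavonoid genes was called. The antioxidant enzyme SAPX, the stromal ascorbate peroxidase, changed by -1.02 ± 0.33, and ATMDAR2, which regenerates ascorbate, by 0.67 ± 0.20, of 3 listed, and their adjusted p-values reached 0.124 and 0.153 under the alternatives. The aldehyde dehydrogenase ALDH3F1 had 763, 971 and 899.6 with antimycin A and 2387, 2231 and 2239 under mock, and of 8 such genes 1 was higher and 2 lower. The higher one, ALDH11A3, changed by 0.34 ± 0.09 and lost its call under both control centrings (adjusted p = 0.397 and 0.418), which gave 3 and 4 lower. Of 11 autophagy genes 4 were higher and 2 lower, or 2 higher under either control centring, with the clearest rise in AT5G66930 (359.5, 338 and 338 with antimycin A, 172, 188 and 160.3 under mock) and with ATG8H and ATG8G at 0.86 ± 0.21 and -0.68 ± 0.16. ATG8E had overlapping groups and an adjusted p of 0.0499 that reached 0.221. The mediator subunits MED31 and MED6 were the 2 called of 5, at 0.59 ± 0.19 and 0.52 ± 0.15, and neither was called under either control centring.

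Of 6 histone genes 5 were higher and none lower, with a median of 0.60 that was 0.38 and 0.34 under the control centrings, where 4 were higher. HON4, a linker histone-like protein, had 2203, 1404 and 1708 with antimycin A and 818, 805 and 899 under mock (2.07-fold, adjusted p = 2.61e-04). HTB2, an H2B histone, had 1012, 1024 and 1078 with antimycin A and 633, 584 and 482 under mock, and HTB11 and HTB4 changed by 0.63 ± 0.10 and 0.57 ± 0.10.

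Transcripts encoded in the mitochondrion itself were higher with antimycin A. Of 15 genes 10 were called higher and none lower, all 15 changes were positive, and the median of 1.08 was 0.86 and 0.83 under the control centrings, with 9 higher in each. They encode subunits of complex I (nad), of cytochrome c oxidase (cox) and factors of cytochrome c maturation (ccb). nad5 had 89.9, 105 and 66.7 with antimycin A and 8.35, 8.80 and 12.2 under mock (at least 4.47-fold, adjusted p = 1.54e-05), read by a probe set that can bind related sequences, and its other probe set changed by 0.96 ± 0.35. nad9 had 256, 174 and 195 with antimycin A and 50.5, 53.1 and 42.1 under mock (4.25-fold, adjusted p = 1.42e-04), and nad4L had 35.8, 82.6 and 55.0 with antimycin A and 7.30, 8.99 and 13.1 under mock. The groups were apart for each of these, at low intensities. cox2 and cox1 changed by 1.501 ± 0.14 and 1.01 ± 0.13, and nad4, ccb206, ccb382, nad7 and nad2 were not called. The 25S ribosomal RNA rose on the same arrays by 1.24 on the log2 scale, and its part in the organelle values was not tested.

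Plastid-encoded transcripts gave a different picture. Of 69 genes 24 were called higher and none lower, with a median of 0.12, but centring on the poly(A) controls gave 6 higher and 5 lower with a median of -0.10, and centring on the hybridisation controls gave 9 higher and 12 lower with a median of -0.14. The direction of the list thus depended on the scaling, and only the largest changes stood clear of it. petD, a subunit of the cytochrome b6f complex, had 148, 156 and 137 with antimycin A and 26.7, 23.7 and 27.9 under mock (5.64-fold, adjusted p = 5.89e-06), and rps14, a ribosomal protein, had 472, 484 and 244 with antimycin A and 99.6, 57.2 and 86.3 under mock (4.84-fold, adjusted p = 2.22e-05). psaA, a core protein of photosystem I, changed by 1.05 ± 0.19, and rbcL, the large subunit of Rubisco, by -0.01 without a call. rpoB had 1 treated array within the mock range, at 119.7, 60.1 and 24.6 with antimycin A and 24.6, 24.7 and 28.6 under mock, and its log2 change of 1.12 (adjusted p = 0.0366) was 0.57 without treated replicate 1 and 1.71 without treated replicate 3. Its call was lost on the poly(A) and hybridisation controls (adjusted p = 0.103 and 0.0677) and with the 6 arrays fitted alone (adjusted p = 0.185).

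Most transcripts switched on in rao1-1 were also raised in the other genotypes. Of the 216 probe sets switched on in rao1-1, 197 were called higher in rao1-2, where 15.6% of all probe sets were, and 196 in wild type, where 14.4% of all were. Conversely, of 256 probe sets switched on in wild type, 208 (81.3%) were called higher in rao1-1, 194 were above the limit on all 3 treated rao1-1 arrays, and 26 stayed under it on all 6 rao1-1 arrays. Of 186 probe sets switched off in wild type, 119 were called lower in rao1-1. The sets are fixed by each genotype's own values, so these counts describe the lists and test nothing.

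The difference between the rao1-1 and the wild-type response was tested as an interaction. In all 84 probe sets were called, 0.369% of those tested, 48 with a higher change in rao1-1 (0.211%) and 36 with a lower one (0.158%), and 2458 had an unadjusted p under 0.05. With only the 14197 probe sets above the limit on average, 26 were called. Centring on the hybridisation controls gave 16 higher and 99 lower. Leaving out single arrays gave between 40 calls, without replicate 2 of rao1-1 mock, and 144, without replicate 1 of wild-type antimycin A or replicate 3 of wild-type mock. It gave 52 without replicate 2 of wild-type antimycin A, and 55 without replicate 3 of rao1-1 antimycin A or replicate 3 of rao1-1 mock.

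The 84 calls had several shapes. Of the 48 higher, 21 fell in wild type alone, 14 were called in rao1-1 alone, 10 moved the same way in both genotypes and 3 moved opposite ways. In 33 of the 48 the mock level was itself called lower in rao1-1 than in wild type, and in 21 the treated level was called higher. Over all probe sets 4.04% were called in mock and 3.27% with antimycin A, in either direction. Mock and treated levels are parts of the difference that selected the 84 probe sets. An excess over those shares is therefore built into the selection and tests nothing. Of these 48, 17 lay under the limit on all 6 rao1-1 arrays. Of the 36 lower, 12 rose in wild type alone, 6 were called in rao1-1 alone, 16 moved the same way in both and 2 opposite ways. The treated level was lower in rao1-1 in 20 and the mock level higher in 17. Of these 36, 11 lay under the limit on all 6 rao1-1 arrays.

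**Figure D4:**
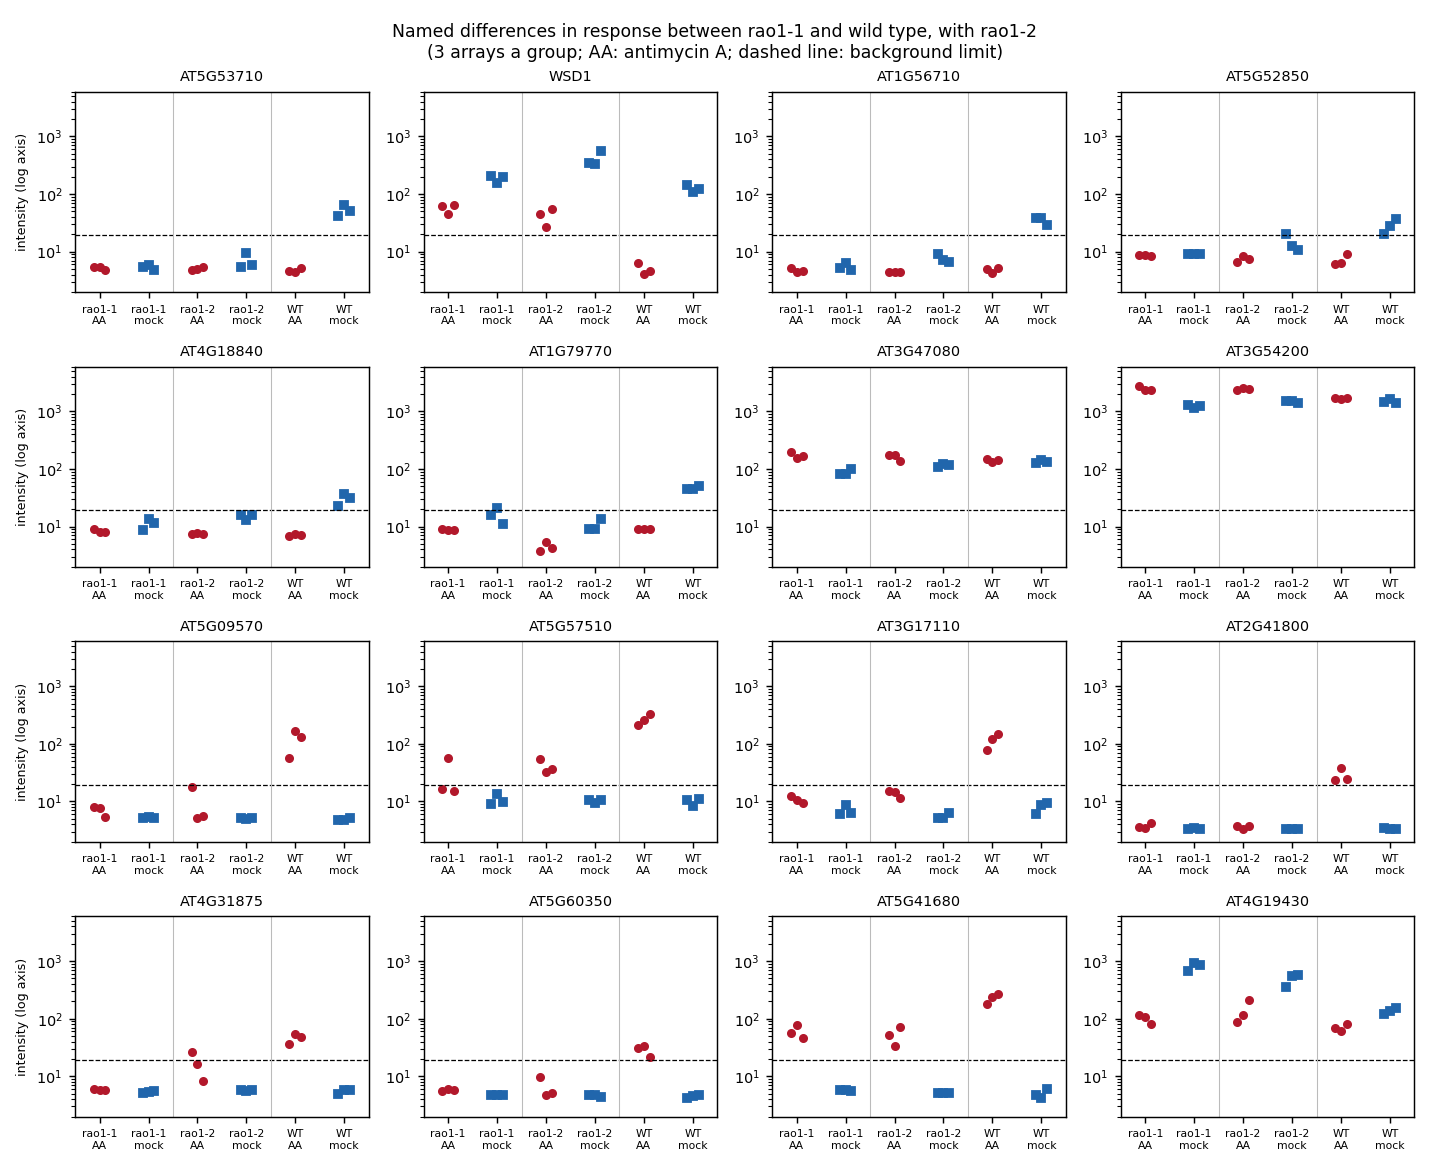
Intensity on each array (log axis, same range in every panel) for the 16 genes named for their fitted difference in response, for rao1-1, rao1-2 and wild type with antimycin A (AA, red circles) and mock (blue squares), 3 arrays a group. In the first rows AT5G53710, AT1G56710, AT5G52850 and AT4G18840 are under the background limit of 19.1 (dashed) on all rao1-1 arrays, and in the third row AT5G09570, AT3G17110 and AT2G41800 exceed it on the wild-type antimycin A arrays and on no other array shown.

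Several transcripts that antimycin A raised in wild type stayed under the limit in rao1-1. AT5G09570, the AT12CYS-2 marker gene, read 5.12 to 8.10 on the 6 rao1-1 arrays, against 57.4, 166 and 133 in wild type with antimycin A and 4.83, 4.77 and 5.20 in wild-type mock. Its response differed by -4.05 ± 0.59 (adjusted p = 0.00787). AT3G17110 had 12.2, 10.6 and 9.47 in rao1-1 with antimycin A and 6.09, 8.81 and 6.26 in rao1-1 mock, against 78.2, 123 and 150.3 in wild type with antimycin A and 5.997, 8.74 and 9.45 in wild-type mock, a difference of -3.21 ± 0.33 (adjusted p = 6.88e-04). AT2G41800, a wall protein with a DUF642 domain, had 3.57, 3.42 and 4.22 in rao1-1 with antimycin A, against 23.7, 37.6 and 24.6 in treated wild type, and the 6 mock arrays of both genotypes read 3.29 to 3.51 (difference -2.91 ± 0.19, adjusted p = 1.46e-05). AT3G17110 was called higher in rao1-1 as well (adjusted p = 0.0472), within values under the limit. AT4G31875 and AT5G60350 had a like pattern, at differences of -2.90 ± 0.39 and -2.38 ± 0.30. These 5 genes were under the limit on all 6 rao1-1 arrays and above it on all 3 treated wild-type arrays. The fitted differences therefore rest on signals under the limit in rao1-1 and in wild-type mock, and their sizes and order are not measured. What the arrays give is a bound on the wild-type rise, at least 5.65-fold for AT5G09570, 5.91-fold for AT3G17110, 2.37-fold for AT4G31875, 1.48-fold for AT5G60350 and 1.46-fold for AT2G41800. In rao1-2 all but AT4G31875 were under the limit on all 6 arrays as well. AT5G09570 had 17.8, 5.15 and 5.59 in rao1-2 with antimycin A, and AT4G31875 had 25.9, 16.3 and 8.34 there, 1 array above the limit.

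In 2 further genes the treated level was lower in rao1-1 than in wild type, and the mock arrays of both genotypes were all under the limit. AT5G41680, a protein kinase, had 57.2, 76.7 and 46.4 in rao1-1 with antimycin A and 5.83, 5.86 and 5.53 in rao1-1 mock, against 184, 239 and 269 in wild type with antimycin A and 4.79, 4.19 and 6.05 in wild-type mock. It was called higher in rao1-1 (adjusted p = 1.54e-07), and the difference was -2.17 ± 0.34 (adjusted p = 0.0127). AT5G57510 had 16.8, 57.2 and 15.03 in rao1-1 with antimycin A, where the second array alone exceeded the limit, against 209.8, 259.9 and 333 in treated wild type (difference -3.53 ± 0.56, adjusted p = 0.0143, and 0.0521 without replicate 2 of rao1-1 mock). Without replicate 2 of rao1-1 antimycin A that difference was -4.14. In treated rao1-2 it had 55.1, 32.1 and 36.8, and AT5G41680 had 51.3, 34.0 and 70.5. AT2G32020, the marker described above, was lower in treated rao1-1 than in treated wild type, at 1772, 2070.4 and 1694 in treated rao1-1 against 3851, 5303 and 5911 in treated wild type (difference -1.51 ± 0.20, adjusted p = 0.00474). The mock values of this gene were under the limit in both genotypes, so the comparison rests on the treated arrays, which did not overlap. In treated rao1-2 the gene read 1609, 1403 and 1661, also under treated wild type. AT4G19430 was lowered further in rao1-1, and its mock level was higher there, at 675, 921 and 869 in rao1-1 mock against 119.9, 135 and 152 in wild-type mock (difference -2.08 ± 0.38, adjusted p = 0.0336, up to 0.100 under the alternatives). It read 356, 548 and 568 in rao1-2 mock and changed by -1.90 in rao1-2.

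Several transcripts that fell in wild type were low in rao1-1 mock seedlings already. AT5G53710 had 5.49, 5.50 and 4.77 in rao1-1 with antimycin A and 5.47, 5.79 and 4.80 in rao1-1 mock, against 4.66, 4.37 and 5.12 in wild type with antimycin A and 41.1, 63.9 and 51.4 in wild-type mock (difference 3.42 ± 0.27, adjusted p = 3.23e-05). AT1G56710, a pectin lyase-like protein, had 5.22, 6.39 and 4.89 in rao1-1 mock against 37.8, 37.9 and 29.3 in wild-type mock (difference 2.66 ± 0.19, adjusted p = 2.16e-05). Neither was called in rao1-1. The pentatricopeptide repeat genes AT5G52850 and AT4G18840, from a family that processes organelle RNA, were not called in rao1-1 either, while AT1G79770 was called lower there too, by a smaller change (-0.81 ± 0.21, adjusted p = 0.00649). The differences of these 3 genes were 1.92 ± 0.33, 1.63 ± 0.23 and 1.57 ± 0.30, with adjusted p-values of up to 0.0753 and 0.0895 for AT5G52850 and AT1G79770 under the alternatives, and with wild-type mock means of 28.6, 30.4 and 46.9. For these 5 genes the treated arrays of both genotypes were all under the limit, so the measured difference lay in the mock arrays, and the fitted differences have no measured size. The wild-type fall was at least 2.68-fold for AT5G53710, 2.45-fold for AT1G79770, 1.82-fold for AT1G56710, 1.56-fold for AT4G18840 and 1.45-fold for AT5G52850. In rao1-2 they were under the limit on every array except 1 mock array of AT5G52850. AT5G53710 had 5.48, 9.59 and 5.89 in rao1-2 mock.

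WSD1, a wax ester synthase of the cuticle, was lowered in both genotypes and kept a measurable level in treated rao1-1. It had 63.2, 45.9 and 63.4 in rao1-1 with antimycin A and 205, 153 and 194 in rao1-1 mock, against 6.32, 4.17 and 4.63 in wild type with antimycin A and 146, 110.4 and 120.1 in wild-type mock (difference 2.97 ± 0.38, adjusted p = 0.00363). The treated wild-type arrays were all under the limit, so this fitted difference has no measured size. The wild-type fall was at least 6.52-fold, against a fall of 3.21-fold in rao1-1. With 16 added to each intensity the adjusted p of the difference was 0.0843. In rao1-2 WSD1 had 44.9, 27.1 and 54.7 with antimycin A and 345, 331 and 553 under mock. AT3G54200, a late embryogenesis abundant protein, had 2778, 2318 and 2399 in rao1-1 with antimycin A and 1309.6, 1146 and 1216 in rao1-1 mock, against 1717, 1616 and 1741 in wild type with antimycin A and 1449, 1630.1 and 1425 in wild-type mock, so that it was raised 2.04-fold in rao1-1 and changed by 0.17 in wild type (difference 0.85 ± 0.11, adjusted p = 0.00474). AT3G47080 had a like pattern at lower levels (difference 0.90 ± 0.16, adjusted p = 0.0307, up to 0.131 under the alternatives). In rao1-2 AT3G54200 and AT3G47080 were also called higher, with changes of 0.71 and 0.49. Among list members GID1C also differed, lowered in rao1-1 as above and reading 29.8, 29.7 and 33.7 with antimycin A and 40.3, 32.8 and 30.0 under mock in wild type (difference -1.40 ± 0.27, adjusted p = 0.0459, up to 0.123 under the alternatives).

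Against rao1-2, the second mutant, limma called no probe set for a difference in response, while 1504 (6.61%) had an unadjusted p under 0.05. The smallest p belonged to AT5G12940, a leucine-rich repeat protein, with 20.9, 65.0 and 40.5 in rao1-1 with antimycin A and 2.75, 2.76 and 3.03 in rao1-1 mock, against 32.8, 31.5 and 15.2 in rao1-2 with antimycin A and 17.7, 20.6 and 20.7 in rao1-2 mock (difference 3.39 ± 0.51, adjusted p = 0.0702). The genotypes differed mainly in mock, where rao1-2 read close to the limit and rao1-1 near the floor of the array. AT2G30740 and AT1G72940 followed, at -0.92 ± 0.15 (adjusted p = 0.0793) and 1.35 ± 0.23 (adjusted p = 0.0844). AT2G30740 changed by -0.09 in rao1-1, without a call, and by 0.83 in rao1-2. AT1G72940 rose in both, by 3.57 in rao1-1 and 2.22 in rao1-2. Without replicate 1 of rao1-2 mock 57 probe sets were called, all 3 of these genes among them. A p that misses the threshold does not show that both mutants respond alike.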

How the data were processed

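The deposited values are linear intensities of Affymetrix ATH1 arrays, already normalized by the authors. Per the submitters' processing notes RMA and GCRMA were used, with no version named and no word on which of them made these values. Both normalize arrays to a common distribution, so a shift shared by the bulk of transcripts cannot be seen. The log2 of each intensity was taken with no pseudocount. No genome build is named, and no coordinates are given.

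Of 22810 probe sets, 64 controls were left out. A gene name came from the supplied platform annotation: 13513 probe sets had 1 gene, 503 several and 8730 none, and 13436 of the 13513 were matched to RefSeq TAIR10.1 for names. A gene with several probe sets is represented by the brightest.

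limma 3.58.1 in R 4.3.3 fitted 6 group means over 18 arrays (12 residual degrees of freedom), with eBayes, two-sided tests and Benjamini-Hochberg adjustment over 22746 probe sets. It was tested on simulated data. The number of arrays limits the precision. Folds come from differences of mean log2 intensity.

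The arrays, gene lists and rules were chosen with earlier results of these data known. Genes were named by rule: the 12 brightest switched on, the 12 largest rises and 12 largest falls above the limit on all 6 arrays, the 8 with the highest mock mean lowered to the limit, the 6 brightest raised and the 6 brightest lowered by 2-fold, 8 differences from wild type each way, the 3 with the smallest p against rao1-2, and up to 4 called members a list. List members named beyond these were chosen after their values were seen. Except for list members and differences between genotypes, genes were named only if called and if treated and mock arrays did not overlap.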

Additional observations from a re-analysis of the deposited data

Results flagged for a closer look

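The response to antimycin A differed between rao1-1 and wild type by the interaction test in limma for 16 named genes, taken as the 8 with the largest fitted difference in each direction. For AT5G53710, AT1G56710, AT5G52850, AT4G18840, AT5G09570, AT3G17110, AT2G41800, AT4G31875 and AT5G60350 all rao1-1 arrays were under the limit, so for these the fitted value and its rank have no measured size. The treated wild-type arrays of WSD1 and the treated arrays of both genotypes of AT1G79770 were also all under it. So were the mock arrays of both genotypes of AT5G57510 and AT5G41680. The fitted values of these genes have no measured size either. The response was higher in rao1-1, on the log2 scale, for AT5G53710 by 3.42, for WSD1 by 2.97, for AT1G56710 by 2.66, for AT5G52850 by 1.92, for AT4G18840 by 1.63, for AT1G79770 by 1.57, for AT3G47080 by 0.90 and for AT3G54200 by 0.85. The response was lower in rao1-1, with differences of -4.05 for AT5G09570, -3.53 for AT5G57510, -3.21 for AT3G17110, -2.91 for AT2G41800, -2.90 for AT4G31875, -2.38 for AT5G60350, -2.17 for AT5G41680 and -2.08 for AT4G19430. Groups of 3 arrays were not searched for single arrays far from the others.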

How the results depend on the processing

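The count of the rao1-1 response stayed within 1.5 times of 9225 under every alternative run, from 7885 to 10027 when single arrays were left out, although centring on the control probe sets moved the share of higher calls from 38.9% to 24.4% with the poly(A) controls and to 18.4% with the hybridisation controls. The count of differences from wild type, 84, was 26 with only probe sets above the limit on average and 40 to 144 when single arrays were left out. The count of differences from rao1-2 was 0 in all settings with all arrays and 0 to 57 when single arrays were left out. Of 145 named responses 123 stayed on the same side of the threshold under every alternative, as did 11 of 18 differences from wild type given for single genes, and no direction reversed. The 3 genes given for rao1-2 had no call, and each gained one when an array was left out. Deviations of arrays with the same replicate number correlated at 0.04, 0.19 and -0.05 in rao1-1, at 0.14, 0.15 and 0.13 in rao1-2, where each array correlated best with its own number, and at 0.27, -0.10 and 0.16 in wild type, so the numbers were not taken to pair the arrays. With the number as a block 9704, 109 and 0 probe sets were called for the response, the difference from wild type and the difference from rao1-2. Calls of dim probe sets rest on signals near background.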
